A study of Mus musculus with 16 samples.

Results

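Imprinted growth genes were examined at day 7 in co-cultures of ES and PA6 cells and in PA6 cells alone, as 10 genes named NDN, PEG3, MEST, IGF2, H19, DLK1, CDKN1C, GRB10, PLAGL1 and SNRPN. The set was chosen by target name, and it was picked because NDN was among the largest gains of co-culture over PA6 on these same arrays. The array table held 9 of the 10 names, with none for SNRPN, and 19 of its 45281 probes belonged to them. Of the 9, 8 had a probe that passed the detection filter and entered the tests with 14829 genes in all.

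Murine ES cells, a line with EGFP knocked in at the tau locus, had been grown on PA6 cells, a mouse bone marrow stromal line, and PA6 cells had been grown alone in parallel. The serum-free medium held either no growth factor (-GFs), 20 ng/ml of FGF2 or 10 ng/ml of BMP4 according to the labels, with the factor present for 3 of the 7 days. A lower BMP4 dose stands in the study's methods. RNA of 16 cultures was hybridized, with 2 co-cultures without factors, 3 with FGF2 and 2 with BMP4, and 3 PA6 mono-cultures of each kind. A co-culture array reads ES-derived and PA6 RNA together, so in these bulk samples fewer cells of a type and less RNA per cell cannot be told apart.

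Imprinted genes are expressed from the copy inherited from 1 parent, a choice kept by DNA methylation at control regions through cell division. Many of them set fetal growth, and paternally expressed members tend to promote it while maternally expressed members tend to restrain it. By textbook assignment 7 of the 10 are expressed from the paternal copy (NDN, PEG3, MEST, IGF2, DLK1, PLAGL1 and SNRPN) and 3 from the maternal copy (H19, CDKN1C and GRB10). The arrays do not separate the copies, so every value below is the sum of both.

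The members share positions that the choice did not use. In the mouse assembly GRCm38.p6, 6 of the 10 lie on chromosome 7. H19 (142575530 to 142578146) lies 72621 bases from IGF2 (142650768 to 142666816), and CDKN1C (143458339 to 143461059) follows, so that these 3 genes fall within 885530 bases. NDN (62348277 to 62349928), PEG3 (6703892 to 6730462) and SNRPN (59982495 to 60450177) lie elsewhere on the same chromosome. MEST is on chromosome 6 (30733506 to 30748466), DLK1 on chromosome 12 (109452485 to 109463336), GRB10 on chromosome 11 (11930499 to 12037428) and PLAGL1 on chromosome 10 (13090832 to 13131694).

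The sequence before the start of NDN is shown because NDN led to the choice of the set, and the mature miR-675 pair because its host H19 was the member that passed the test with growth factors. The NDN window covers the 250 bases before the annotated start on the plus strand (RefSeq, GRCm38.p6, chr7:62348027-62348276), with each CG, the dinucleotide that carries methylation, in capitals. The capitals of the miRNAs mark the seed, bases 2 to 8, and both are read from the minus strand of chromosome 7 inside the H19 gene.
NDN: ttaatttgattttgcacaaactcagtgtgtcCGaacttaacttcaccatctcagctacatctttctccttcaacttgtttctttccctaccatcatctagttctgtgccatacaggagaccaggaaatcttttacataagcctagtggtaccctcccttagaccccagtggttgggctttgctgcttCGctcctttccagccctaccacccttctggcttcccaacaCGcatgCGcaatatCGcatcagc
mmu-miR-675-5p: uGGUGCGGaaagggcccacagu
mmu-miR-675-3p: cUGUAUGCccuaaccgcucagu
The NDN window held 5 CG against a median of 6 over 32851 windows of the same length, and 44.4% of windows held fewer. The RefSeq table gave windows for 8 of the 10 members. The seeds of miR-675-5p and miR-675-3p differ, and no level of either miRNA is given here.

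Levels are given as log2 of the normalized intensity, and a probe was taken as detected on an array when its detection p-value was under 0.05. NDN, which encodes necdin, a growth-suppressing protein of post-mitotic neurons, was bright on all co-culture arrays. Its level was 14.92 and 14.88 without factors, 14.47, 14.47 and 14.43 with FGF2, and 14.27 and 14.26 with BMP4. On the 9 PA6 arrays it lay between 5.55 and 6.25 and was detected on none. The co-culture arrays were therefore at least 296-fold brighter without factors, at least 201-fold with FGF2 and at least 171-fold with BMP4, each a bound set by the lowest signal that counts as detected on the PA6 arrays.

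By the normalized levels that chose the set, NDN stood 2nd of all genes without factors with a difference of 9.10 on the log2 scale, between SOX11 with 9.27 and FXYD6 with 8.74. NDN and SOX11 were undetected on the PA6 arrays, so these differences run against background, are no fold changes and carry no order beyond the bounds above. Since this contrast chose the set, they are a description and were given no test. The 5 genes whose levels ran closest to NDN over the 16 arrays, after each gene's own mean was subtracted, were SOX11, BEX4, FXYD6, SLC2A3 and CDKN1C, with root mean square differences of 0.19, 0.29, 0.36, 0.41 and 0.53 in log2 units, in which the background level of an undetected gene counts as its level. SOX11 encodes a transcription factor of neural progenitors.

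CDKN1C, which encodes the cyclin-dependent kinase inhibitor p57, was likewise detected on every co-culture array and on no PA6 array. Its co-culture levels were 14.05 and 14.93 without factors, 13.48, 13.52 and 14.03 with FGF2, and 14.09 and 14.15 with BMP4, against 5.64 to 6.60 in PA6. Co-cultures were at least 223-fold brighter without factors, at least 117-fold with FGF2 and at least 154-fold with BMP4. PEG3, a zinc finger gene, was undetected in PA6 (5.67 to 6.57) and lay at 11.18 and 11.24 without factors, at 11.25, 11.24 and 11.69 with FGF2, and at 12.22 and 12.16 with BMP4. Its bounds were 22.9-fold, 24.1-fold and 40.4-fold in the same order of conditions. A second PEG3 probe, undetected in PA6 as well, gave bounds of 3.07-fold, 3.52-fold and 6.92-fold. ZIC1 was the gene nearest to PEG3 over the 16 arrays (0.25) and EDNRB the nearest to CDKN1C (0.36).

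MEST, which encodes an enzyme of the alpha/beta hydrolase fold, was detected on 6 of the 9 PA6 arrays. Its levels there were 9.46, 8.26 and 7.90 without factors, 8.10, 6.38 and 7.46 with FGF2, and 6.83, 6.83 and 7.29 with BMP4. On co-culture arrays MEST lay at 14.14 and 13.42 without factors, at 13.44, 12.60 and 12.78 with FGF2, and at 13.12 and 13.53 with BMP4. The differences between both kinds of culture were 5.25 without factors, 5.63 under FGF2 and 6.34 under BMP4 on the log2 scale. With FGF2 1 of the 3 PA6 arrays and with BMP4 2 of the 3 did not detect MEST, so these means are partly background and no order over the conditions is read from them. GRB10, an adaptor that binds the insulin and IGF1 receptors and restrains growth, was detected throughout and ranged from 12.49 to 13.16 in co-cultures and from 10.73 to 11.66 in PA6. Its differences were 1.62, 1.58 and 1.75. The other detected GRB10 probe, which lay between 6.80 and 8.25 on all arrays, did not repeat them, with differences of 0.21, -0.39 and 0.63, and a further probe was undetected throughout.

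IGF2, the fetal growth factor that acts through the IGF1 receptor, was among the bright genes of both kinds of culture. Its levels in PA6 ran from 14.31 to 15.62 and those in co-cultures from 14.50 to 15.74, and the arrays overlapped. Intensities before normalization reached 55022, where differences may be compressed. The co-culture level minus the PA6 level was -0.10 without factors, 0.20 with FGF2 and 0.90 with BMP4. DLK1, a transmembrane protein that restrains the maturation of fat cells, was the member that was higher in PA6. The 9 PA6 arrays lay between 15.71 and 15.94 for the tested probe and the 7 co-culture arrays between 13.07 and 14.02, with differences of -2.45, -2.14 and -2.02.

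The PA6 intensities of the tested DLK1 probe were 50425 to 65367 before normalization, so bright that its differences may be compressed, which was not tested. The second DLK1 probe, with PA6 intensities of 41563 to 65922, gave differences of -4.67, -4.04 and -3.76. Its co-culture levels were lower, at 10.74 to 12.02 against 13.07 to 14.02 for the tested probe. The gene nearest to DLK1 over the arrays was B2M (0.15), to GRB10 LOC329750 (0.14), to IGF2 LOC235300 (0.26) and to MEST CDC6 (0.59).

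H19, the long non-coding RNA next to IGF2, was detected on all 16 arrays. In PA6 it lay at 12.41, 11.81 and 10.01 without factors, at 13.39, 12.85 and 12.18 with FGF2, and at 10.88, 11.15 and 9.72 with BMP4. In co-cultures it lay at 12.80 and 13.14 without factors, at 14.25, 14.76 and 14.44 with FGF2, and at 15.23 and 14.34 with BMP4. The co-culture level was higher by 1.56 without factors, by 1.68 under FGF2 and by 4.20 under BMP4 (second probe 0.91, 1.33 and 4.14). Over all 16 arrays both kinds of culture overlapped. RCSD1 was the gene nearest to H19 (0.79), the largest distance to a nearest gene among the 8 members tested.

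**Figure D1:**
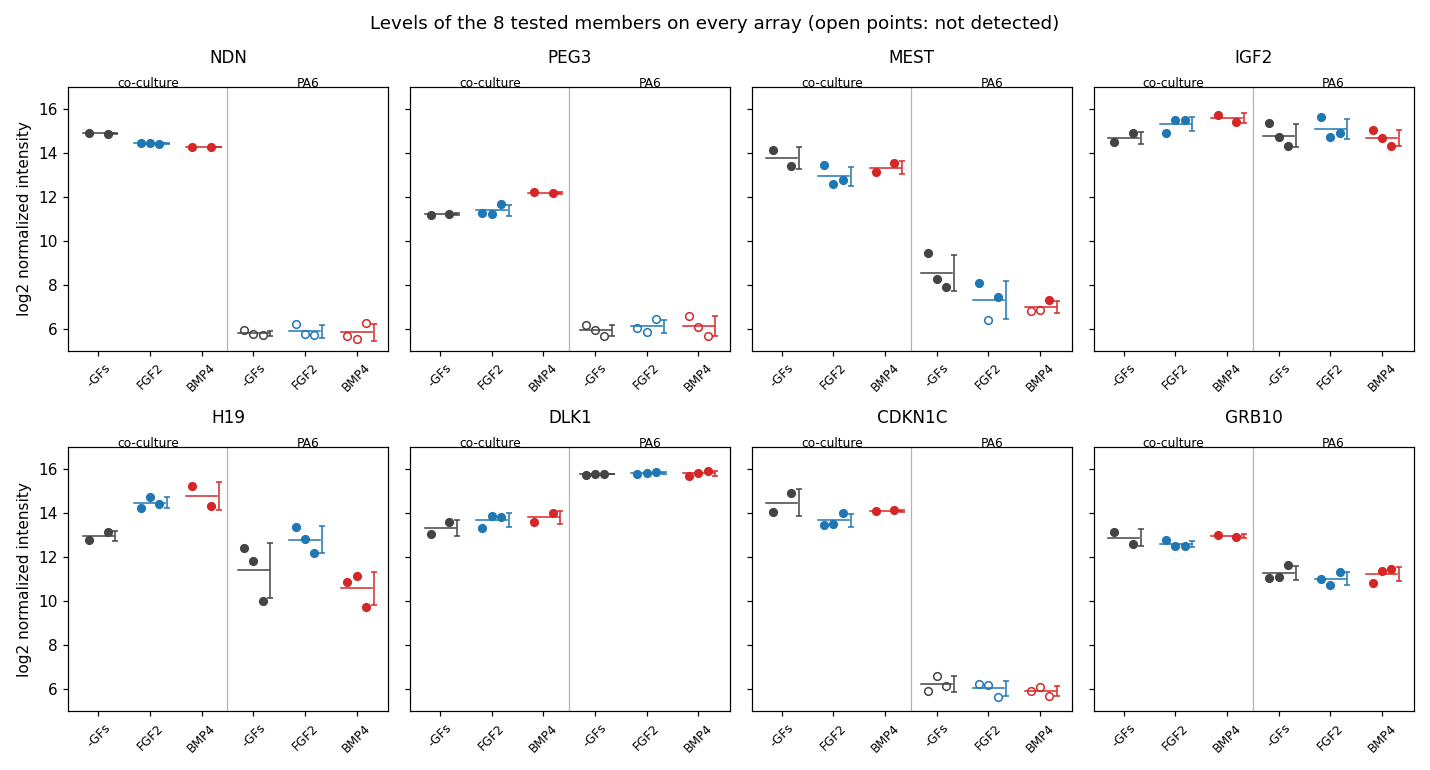
Log2 normalized intensity (vertical axis) of the 8 tested members on each of 16 arrays, by culture and growth factor, with filled points for detected and open points for undetected arrays, a line at the group mean and a bar of ± SD. NDN, PEG3 and CDKN1C are open on all 9 PA6 arrays, and DLK1 is the member whose PA6 arrays all lie above the co-culture arrays.

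Counted over members, all 7 co-culture arrays lay above all 9 PA6 arrays for 5 of the 8 tested (NDN, PEG3, MEST, CDKN1C and GRB10), below them for 1 (DLK1), and overlapped for 2 (IGF2 and H19). Of all genes tested 23.9% lay above in this way and 24.2% below, and nothing is read from the member counts because the contrast chose the set. Among the 16 tested genes of the list of paternally expressed genes, 10 lay above and 4 below, and among the 17 of the maternally expressed list 5 lay above and 7 below. These counts include the members. PLAGL1, which encodes a zinc finger transcription factor of growth arrest, had 3 probes, none of which was detected on any array (detection p-values of 0.0694 to 0.996), so none of its probes stood well above background. SNURF, a reading frame carried by the same transcript as SNRPN, was measured by its own probe and changed by 0.05 ± 0.20 (SE) with FGF2 and -0.47 ± 0.22 with BMP4 in co-cultures (limma, adjusted p = 0.906 and 0.381).

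To ask whether the growth factors moved these genes in co-cultures, each factor was set against the 2 -GFs arrays. A gene was called when its adjusted p was under 0.1 and its log2 change exceeded 1 in size. H19 rose with both factors and was the only one of the 8 tested members called in either comparison. It rose by 1.51 ± 0.301 (SE) on the log2 scale with FGF2, which is 2.85-fold (limma, adjusted p = 0.0336), and by 1.81 ± 0.330 with BMP4, which is 3.51-fold (limma, adjusted p = 0.0462). All 5 factor-treated arrays lay above both -GFs arrays. How many of all genes separate in this way between factors was not counted. Overlap between such small groups, here and in the paragraphs below, is therefore only a description of the spread. Of all genes tested, 5.07% were called higher and 2.35% lower with FGF2, and 2.28% and 1.47% with BMP4, and 1 call among 8 members is too few to be set apart from these shares. An unadjusted p under 0.05 was found for 5 of the 8 members with FGF2, against 22.7% of all genes, and for 4 with BMP4, against 14.9%. NDN, whose choice used the -GFs arrays, is among both.

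The second H19 probe gave the same directions. It read 10.94 and 11.19 without factors, 12.01, 12.88 and 12.60 with FGF2, and 13.61 and 12.73 with BMP4. When every probe was tested on its own its changes were 1.43 ± 0.344 with FGF2 (limma, adjusted p = 0.0614) and 2.10 ± 0.377 with BMP4 (limma, adjusted p = 0.0484), and both passed. Within runs of adjacent columns of the deposited table the first probe differed between FGF2 and -GFs by 1.44 in run 1 and 1.30 in run 3, and between BMP4 and -GFs by 1.20 in run 3, the other runs holding no such pair.

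Both H19 changes stayed positive when any 1 array was left out, but the calls did not all hold. Without -GFs replicate 1 the FGF2 change was 1.34 (limma, adjusted p = 0.181) and the BMP4 change 1.64 (0.187), and without -GFs replicate 2 they were 1.68 (0.101) and 1.98 (0.125). Without BMP4 replicate 1 the BMP4 change was 1.37 (0.196). Each of these fits leaves 1 group with 1 array, which is assumed to vary like the other groups. With all 16 arrays in 1 fit the adjusted p of limma was 0.128 for FGF2 and 0.151 for BMP4. With the replicate number as a block it was 0.118 and 0.143, and with detection required on all 16 arrays the BMP4 call ended as well (0.113).

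**Figure D2:**
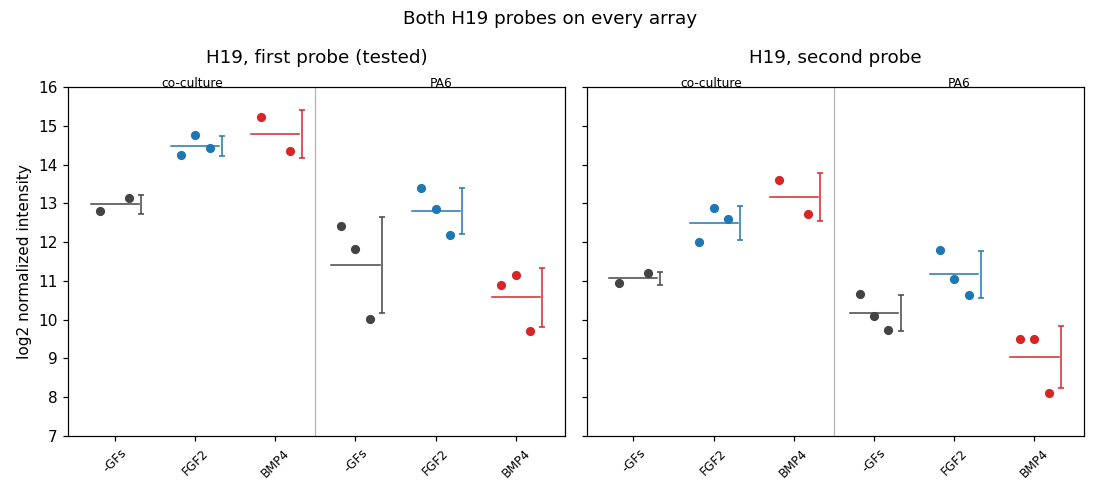
Log2 normalized intensity (vertical axis) of the tested H19 probe and of the second probe on each array by culture and growth factor, with lines at group means and bars of ± SD. On both probes the FGF2 and BMP4 co-cultures lie above the -GFs co-cultures, whereas in PA6 the BMP4 arrays lie lowest on average.

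The paternally expressed members did not pass the test with either factor. PEG3 came nearest, with a change of 0.98 ± 0.216 with BMP4 (limma, adjusted p = 0.0795), which passed on p and fell short of the limit on size, and both BMP4 arrays lay above both -GFs arrays. Its second detected probe changed by 1.33 ± 0.409 (limma, adjusted p = 0.192), and its remaining probe was undetected on all arrays. With FGF2 PEG3 changed by 0.19 ± 0.197 (limma, adjusted p = 0.639).

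NDN changed by -0.44 ± 0.152 with FGF2 (limma, adjusted p = 0.143) and -0.63 ± 0.167 with BMP4 (limma, adjusted p = 0.123). The arrays of each factor lay below both -GFs arrays, and those -GFs arrays also entered the difference by which NDN was selected. IGF2 changed by 0.61 ± 0.249 with FGF2 (limma, adjusted p = 0.206) and 0.89 ± 0.272 with BMP4 (limma, adjusted p = 0.175), with all treated arrays above both -GFs arrays. IGF2 and H19 thus had positive changes with both factors, although the IGF2 changes failed the correction. MEST changed by -0.84 ± 0.329 with FGF2 (limma, adjusted p = 0.187) and by -0.46 ± 0.361 with BMP4 (limma, adjusted p = 0.661), and its 3 probes shared these signs. DLK1 changed by 0.35 ± 0.270 and 0.48 ± 0.296, with overlapping arrays.

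Of the maternally expressed members that restrain growth, CDKN1C changed by -0.81 ± 0.301 with FGF2 (limma, adjusted p = 0.167) and -0.37 ± 0.329 with BMP4 (0.710). The 3 FGF2 arrays lay below both -GFs arrays, the nearer of which exceeded the highest FGF2 array by little (14.05 against 14.03). GRB10 changed by -0.30 ± 0.214 and 0.08 ± 0.234. Over the 8 members the median change with FGF2 was -0.06, equal to that of all genes, and with BMP4 it was 0.28 against 0.00 over all genes.

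BMP4 was also compared directly with FGF2, a difference of means that leaves out the -GFs arrays, although these enter the error of the fit. No member was called (limma). An unadjusted p under 0.05 was found for 1 of the 8, PEG3, against 14.2% of all genes. PEG3 differed by 0.79 ± 0.197 (limma, adjusted p = 0.146), with both BMP4 arrays above all 3 FGF2 arrays. H19 differed by 0.30 ± 0.301 (limma, adjusted p = 0.727) and IGF2 by 0.29 ± 0.249 (0.681). Over all genes 0.755% were called higher with BMP4 and 0.688% higher with FGF2.

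**Figure D3:**
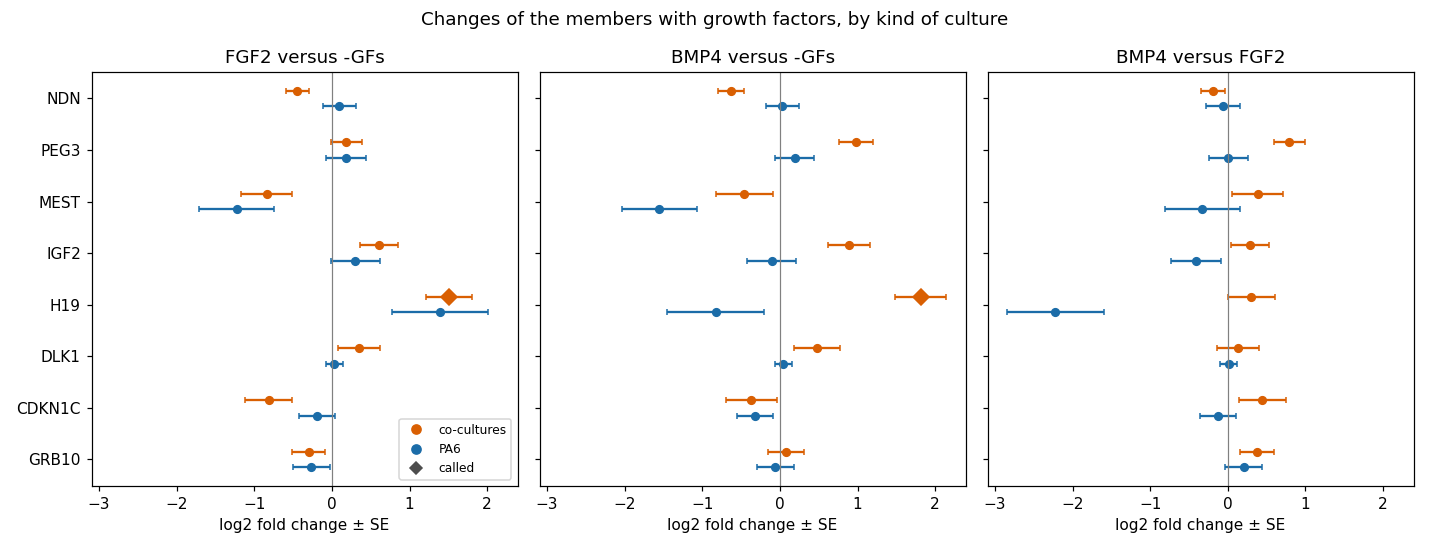
Log2 fold change ± SE (horizontal axis) of the 8 tested members for 3 comparisons, with co-cultures in orange, PA6 mono-cultures in blue and diamonds for called genes. The diamonds are the 2 changes of H19 in co-cultures, and the H19 change of BMP4 against FGF2 in PA6 is the largest in size.

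PA6 mono-cultures address what the factors did to the stromal cells alone. No member was called there in any of 3 comparisons in the main fit (limma). In each, 1 of 8 had an unadjusted p under 0.05, which were MEST with FGF2, MEST with BMP4 and H19 between the factors. Of all genes 10.4%, 9% and 9.27% had such a p in the same order. Of all genes 0.027% were called with FGF2 and 0% with BMP4 (0 genes, with 1334 at an unadjusted p under 0.05), and 0.31% between BMP4 and FGF2. MEST changed by -1.23 ± 0.485 with FGF2 (limma, adjusted p = 0.443) and by -1.56 ± 0.485 with BMP4 (limma, adjusted p = 0.532). It was detected on 3 of 3 -GFs arrays, 2 of 3 FGF2 arrays and 1 of 3 BMP4 arrays, so both changes run partly against background. NDN, PEG3 and CDKN1C were undetected in PA6, so their changes there carry no information on level.

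H19 in PA6 differed by 1.39 ± 0.623 with FGF2 (limma, adjusted p = 0.487) and by -0.83 ± 0.623 with BMP4 (limma, adjusted p = 0.716). Between BMP4 and FGF2 it differed by -2.22 ± 0.623 (limma, adjusted p = 0.282), and all BMP4 arrays lay below all FGF2 arrays. Within the 3 column runs, which coincide with the replicate numbers in PA6, this difference was -2.50, -1.70 and -2.46. With the replicate number as a block it was -2.22 and was called (limma, adjusted p = 0.0531).

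The effects of each factor in co-cultures and in PA6 were then compared by an interaction term over all 16 arrays. No member was called for FGF2 or for BMP4 in the main fit (limma), where 7.9% and 4.23% of all genes were called. An unadjusted p under 0.05 was found for 0 and 3 of the 8 members, against 21.8% and 15.5% of all genes. The largest was H19 with BMP4, whose effect was higher in co-cultures by 2.64 ± 0.853 (limma, adjusted p = 0.137). The second H19 probe gave 3.24 ± 0.655 (limma, adjusted p = 0.0187) when every probe was tested on its own, and passed. For FGF2 the H19 effects differed by 0.12 ± 0.809 (limma, adjusted p = 0.955). Of 16 fits that each left out 1 array, 1 called the BMP4 difference of the first probe. It was the fit without PA6 -GFs replicate 3, in which H19 was lowest of its group, with 3.34 ± 0.655 (limma, adjusted p = 0.0211). The BMP4 difference was also called with the replicate block and under other settings given below.

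The other genes of the family were taken from lists of imprinted genes, of which 33 of 55 were tested. With FGF2 in co-cultures 13 of the 33 had an unadjusted p under 0.05, against 22.7% of all genes. There 5 were called, namely 4 higher and 1 lower, against 5.07% and 2.35% of all genes, and the median change was 0.05 against -0.06. Besides H19 the genes that rose were PHLDA2, a placental growth restrainer, by 2.00 ± 0.396 (limma, adjusted p = 0.0327), DIO3, which inactivates thyroid hormone, at least 2.79-fold (limma, adjusted p = 0.0437), and SLC22A18, a membrane transporter, at least 3.04-fold (limma, adjusted p = 0.0334). DIO3 and SLC22A18 were undetected on both -GFs co-culture arrays, so their fitted changes of 1.85 ± 0.402 and 1.81 ± 0.359 are measured against background and are no bounds. On all 9 PA6 arrays DIO3 (11.004 to 11.645) and SLC22A18 (9.242 to 10.011) were detected and lay above every co-culture array. The part of PA6 RNA in their rises was not tested. PPP1R9A, a neuronal actin-binding protein, fell by 1.003 ± 0.174 (limma, adjusted p = 0.0223). SLC22A18 and PHLDA2 start 12666 and 40485 bases past CDKN1C on chromosome 7, whereas CDKN1C itself changed by -0.81. The 5 calls became 0 without -GFs replicate 1, 1 without -GFs replicate 2, 1 with detection on all 16 arrays, 2 without background correction and 3 with the replicate block.

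With BMP4 in co-cultures H19 was the only imprinted gene of the 33 called, and the median change was 0.02 against 0.00. An unadjusted p under 0.05 was found for 13 of the 33, against 14.9% of all genes. PHLDA2 changed by 0.88 ± 0.433 (limma, adjusted p = 0.410), DIO3 by 1.21 ± 0.440 against undetected -GFs arrays (limma, adjusted p = 0.256, at least 1.79-fold) and PPP1R9A by -0.98 ± 0.190 (limma, adjusted p = 0.0558), which passed on p alone. None of the 33 was called between BMP4 and FGF2 (8 with an unadjusted p under 0.05, against 14.2% of all genes), and none in the 3 PA6 comparisons by limma (3, 3 and 4, against 10.4%, 9% and 9.27% of all genes). The difference of effects between co-cultures and PA6 was called for PHLDA2, DIO3, SLC22A18 and ATP10A with FGF2, by 1.95 ± 0.398, 1.85 ± 0.431, 1.53 ± 0.419 and 1.15 ± 0.320 (limma, adjusted p = 0.0110, 0.0215, 0.0464 and 0.0495). These are 4 of 33 against 7.9% of all genes. With BMP4 it was called for NNAT alone, by -1.75 ± 0.440 (limma, adjusted p = 0.0510), 1 of 33 against 4.23%. PHLDA2 and NNAT were undetected on all 9 PA6 arrays, and DIO3 and SLC22A18 on both -GFs co-culture arrays, so these differences are partly set by background.

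**Figure D4:**
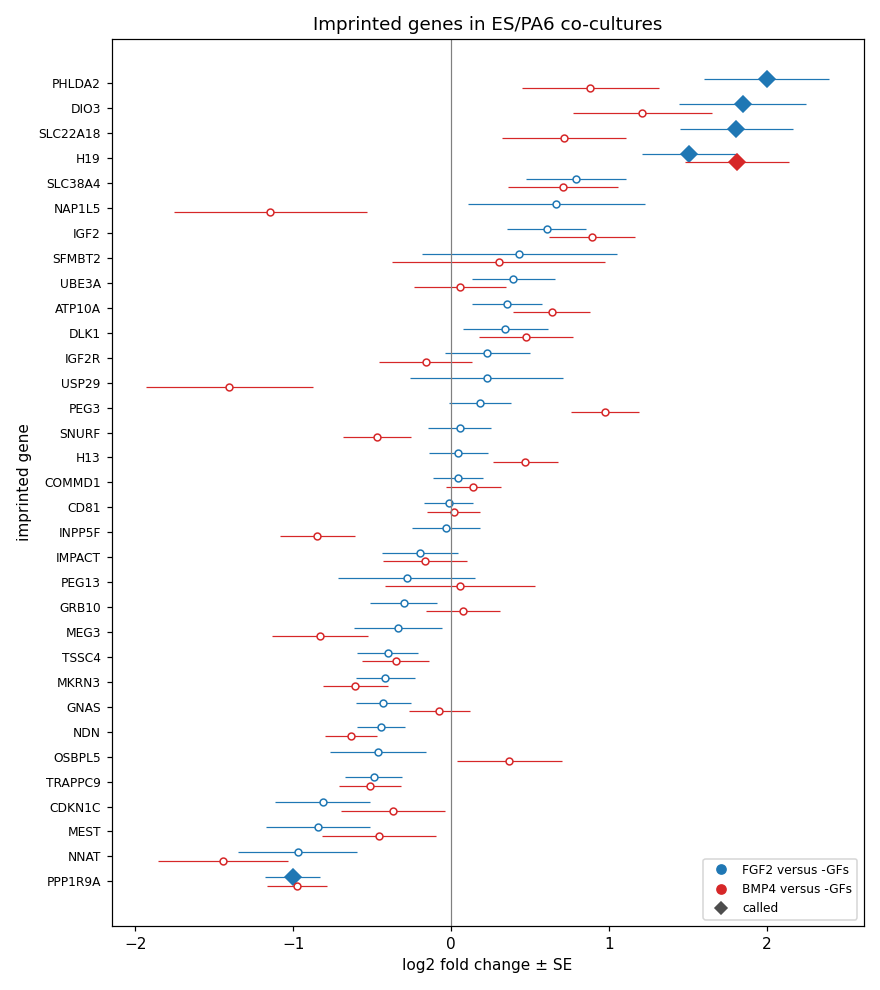
Log2 fold change ± SE (horizontal axis) of 33 imprinted genes in ES/PA6 co-cultures, ordered by the FGF2 change, with FGF2 in blue, BMP4 in red and filled diamonds for called genes. PHLDA2, DIO3, SLC22A18 and H19 head the order with FGF2, and H19 is the diamond with BMP4.

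Genes that act with the members were read from 3 further lists. Of 18 tested genes of the IGF axis, which holds the ligands, receptors and binding proteins around IGF2, IGFBP3 rose by 1.40 ± 0.185 with FGF2 (limma, adjusted p = 0.0103) and by 1.70 ± 0.203 with BMP4 (limma, adjusted p = 0.0140). IGFBP3 encodes a binding protein that carries IGF1 and IGF2, and its BMP4 effect was higher in co-cultures than in PA6 by 1.41 ± 0.306 (limma, adjusted p = 0.0259), with IGFBP3 undetected on all PA6 arrays. IGFALS, the partner of the circulating complex, rose at least 1.56-fold with FGF2 (limma, adjusted p = 0.0501). It was undetected on both -GFs co-culture arrays, so its fitted change of 1.16 ± 0.268 is measured against background. In the IGF axis 2 of 18 were called with FGF2 and 1 of 18 with BMP4, against 5.07% and 2.28% of all genes called higher. None of 7 CDK inhibitors, CDKN1C included, was called with either factor (limma). In each, 1 had an unadjusted p under 0.05, against 22.7% of all genes with FGF2 and 14.9% with BMP4. Of 9 tested genes that set or keep imprints, DNMT3L, the cofactor of de novo DNA methylation, rose by 2.05 ± 0.436 with FGF2 (limma, adjusted p = 0.0405). ZFP57, which guards methylated imprints, rose by 1.06 ± 0.312 with FGF2 (limma, adjusted p = 0.0976). These are 2 of 9, against 5.07% of all genes called higher. None of the 9 was called with BMP4 (1 at an unadjusted p under 0.05, against 14.9% of all genes). The FGF2 effect was higher in co-cultures than in PA6 by 1.49 ± 0.438 for ZFP57 (limma, adjusted p = 0.0616) and by 1.68 ± 0.588 for DNMT3L (0.111). Both were detected on all PA6 arrays, DNMT3L at 9.17 to 10.73 and ZFP57 at 8.53 to 9.83.

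Cell type markers moved along the same conditions, as sums of linear intensities over each list. The 7 pluripotency markers, all detected on every co-culture array, summed to 39100 to 44580 without factors, 112400 to 127000 with FGF2 and 68260 to 85690 with BMP4, and to 537 to 1112 in PA6. The 9 neural markers summed to 39830 to 60120, 30370 to 33360 and 23200 to 26760 in the same order, with NEUROD1 and PAX6 undetected in all 3 groups. The 6 surface ectoderm markers summed to 2017 to 2526, 1404 to 2005 and 13030 to 23700. The 7 stromal markers summed to 9722 to 13900, 8771 to 17260 and 14060 to 15340 in co-cultures against 35570 to 75450 over the PA6 arrays, with POSTN undetected in all co-culture groups. The 6 endothelial markers summed to 485.4 to 573.9, 1986 to 3231 and 1271 to 1611 in co-cultures against 363.1 to 819.6 in PA6, with CDH5, TIE1 and ICAM2 undetected without factors and with FGF2. The 6 adipocyte markers summed to 1942 to 4229, 2463 to 3509 and 3133 to 17630 in co-cultures, and to 2374 to 18260, 1972 to 3043 and 13080 to 120400 in PA6, where H19 was lowest with BMP4 on average. The 6 mesoderm markers summed to 907.8 to 1275, 457.7 to 582.3 and 422.7 to 1146 in co-cultures, with MESP1, EOMES, MIXL1 and HAND1 undetected. The part of cell composition in the member levels and changes was not tested.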

How the data were processed

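Illumina MouseWG-6 v2.0 arrays of 16 cultures were analysed. The authors processed the scans in GenomeStudio 2011.01 per the labels, and the deposited table gives an average bead intensity per probe and array, not normalized between arrays, with a detection p-value per probe. Cubic spline normalized values were not used here. Background correction by the normexp model used the detection p-values with an offset of 16, followed by quantile normalization over 16 arrays and log2 transformation (neqc, limma 3.58.1, R 4.3.3). The deposited table holds no log2 values. Probes detected (p under 0.05) on every array of a group were retained (20880), and the probe with the largest mean stood for each gene (14829). Of the probes, 37.3% to 47.0% were detected per array, and arrays of a group correlated at 0.973 to 0.986. The number of arrays limits the precision.

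Linear models (limma, two-sided) were fitted to the 7 co-culture and the 9 PA6 arrays separately, and interactions to all 16, with Benjamini-Hochberg adjustment over all genes. The labels call the replicates biological without naming their source, so the spread between them may be partly technical. A bound for a group undetected on every array uses, per array, the higher of the lowest detected signal and the probe's own. The members and lists were chosen with earlier results of these data known. Named genes were the members, at most 5 rises and 5 falls among called genes of each list and comparison, the 5 nearest genes of NDN and the nearest 1 of every other tested member. SNURF was named in place of the absent SNRPN, and some undetected markers were named. The fits were checked on simulated data. Alternatives covered normalization, background, offset, filters, probes, thresholds, variance prior, arrays fitted, a replicate block and left-out arrays, and a column run block added after the data were seen.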

Additional observations from a re-analysis of the deposited data

How the results depend on the processing

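The 64 changes of the 8 members over 8 comparisons kept both H19 calls under an offset of 50, median scaling, no background correction, looser filters, a stricter adjusted p, every detected probe, a variance trend and the column run block, and 24 of the 64, none of them called, took either sign under some alternative. Median scaling moved the median of all genes to -0.21 with FGF2, 0.09 with BMP4 and 0.29 for BMP4 against FGF2 in co-cultures, and the share of calls that were higher to 59.5% from 68.4% with FGF2 and to 63.8% from 52.3% for BMP4 against FGF2.

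Members called with FGF2 in co-cultures (1) numbered 2 under median scaling, with MEST added, 0 with all 16 arrays in 1 fit and 0 with the replicate block. With BMP4 (1) they numbered 0 with detection on all 16 arrays, 0 with all 16 arrays in 1 fit, 0 with the replicate block and 2 without a minimum fold change, with PEG3 added. Imprinted genes called with FGF2 (5) numbered 2 without background correction, 1 with detection on all 16 arrays and 3 with the replicate block. With BMP4 (1) they numbered 4 under median scaling, 2 without background correction, 0 with detection on all 16 arrays, 3 with every detected probe, 3 without a minimum fold change, 2 with a variance trend, 3 with all 16 arrays in 1 fit, 0 with the replicate block and 3 with the column run block. Between BMP4 and FGF2 in co-cultures (0) they numbered 2 under median scaling, 1 with every detected probe, 4 with all 16 arrays in 1 fit and 1 with the column run block. In PA6 between BMP4 and FGF2 H19 became 1 call with the replicate block and 1 with the column run block. The BMP4 interaction of H19 became 1 call under median scaling, without background correction, with a variance trend, with the replicate block and with the column run block. The causes were not tested.

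Leaving out 1 array, members called ranged from 0 to 1 with FGF2, from 0 to 1 with BMP4 and from 0 to 1 for the BMP4 interaction (the 1 without PA6 -GFs replicate 3). Imprinted genes called ranged from 0 to 5 with FGF2 (0 without -GFs replicate 1 and 1 without -GFs replicate 2), from 0 to 2 with BMP4 and from 0 to 1 between BMP4 and FGF2.

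The main fits followed the study's methods, which name no block, and fits with a block are given as alternatives. Deviations of same-numbered co-culture arrays correlated at -0.199 to 0.283 over 6 pairs (other pairs -0.283 to 0.249). Those of same-numbered PA6 arrays correlated at 0.07 to 0.199 over 9 pairs, all above the other pairs (-0.136 to -0.012). PA6 arrays of the same number thus shared variation that the main fits leave in the error. Co-culture arrays of the same column run correlated at 0.098 to 0.283 over 5 pairs (other pairs -0.283 to 0.098). With the replicate block the H19 change was 1.53 with FGF2 (limma, adjusted p = 0.118) and 1.81 with BMP4 (limma, adjusted p = 0.143) in co-cultures, and its difference between BMP4 and FGF2 in PA6 was -2.22 (limma, adjusted p = 0.0531).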
